A study of Mus musculus with 1078 samples.

Results

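The genes of major histocompatibility complex (MHC) class II presentation were followed through every sorted cell of GL261 tumors. They were chosen by name, and all 7 of them were present among the 21765 genes measured: H2-Aa and H2-Ab1 (the alpha and beta chains of the I-A molecule), H2-Eb1 (the beta chain of I-E), Cd74 (the invariant chain), H2-DMa and H2-DMb1 (the chains of the peptide exchange factor H2-DM) and Ciita (the transactivator). GL261 is a mouse glioma cell line, here implanted into the brain of C57BL/6 animals of 6 to 8 weeks of age, whose strain it shares. Tumor-bearing mice received losartan together with an antibody against the checkpoint receptor PD1 (losartan+anti-PD1), anti-PD1 alone, losartan alone or control treatment. Losartan, an angiotensin receptor blocker, was given at 60 mg/kg daily from 1 week before the antibody, for 2 weeks in all, and anti-PD1 in 3 doses 3 days apart. Single cells were sorted onto 16 plates, 1 for each of 4 sorts (CD31-positive, CD45-negative, CD45-positive and CD3-positive) and 4 treatments, and sequenced by Smart-seq2, which reads full-length cDNA from 1 cell per well. The 1078 cells carry the authors' labels for 8 cell types, among them tumor endothelial cells (TECs) and malignant cells.

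Class II molecules carry peptides from proteins taken up or made in the cell to the surface, where CD4 T cells read them. Dendritic cells, macrophages and B cells make them throughout life, whereas endothelial and tumor cells usually do so only after interferon gamma, which switches on Ciita. The invariant chain fills the groove of a new class II molecule, proteases cut it down, and H2-DM exchanges the last fragment for a peptide. Mice of the C57BL/6 strain lack a working alpha chain of I-E, so that I-A is their only surface class II molecule and H2-Eb1 RNA has no partner at the surface.

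No source names the animal behind a cell, so each treatment is 1 sample in each sort. How animals vary is therefore unknown, and no test was possible. Treatment and plate cannot be told apart. SDs and intervals cover the spread and counting error over cells only. Each cell was scaled to a sum of 100000, giving transcripts or counts per 100000 (TP100K). The CD31-positive and CD3-positive plates hold TPM, divided by transcript length, and the CD45-negative and CD45-positive plates hold values that by their form are expected counts, which are not, so ratios between treatments were taken only within a sort, and levels from sorts of different units are given side by side with no ratio. Cells had 1023 to 7995 genes detected, with medians of 4107 genes on CD31-positive, 6614 on CD45-negative, 3250 on CD45-positive and 2060 on CD3-positive plates. No cell name occurred more than once. One table column names losartan+anti-PD1 for all 49 cells of the CD45-negative plate whose other labels, those of GEO included, say losartan. That plate was kept as losartan. The labels of TECs and malignant cells were checked against marker lists: all 8 genes of an endothelial list were above 0 in 25% of TECs or more, and 6 of 6 (CD31-positive plates) and 5 of 6 (CD45-negative plates) genes of a list of glial progenitor type were so in malignant cells. The second list does not separate malignant cells from oligodendrocytes, in which it summed to a mean of 103 TP100K on CD45-negative plates, against 100.3 and 106 TP100K in malignant cells with and without both I-A chains. An oligodendrocyte list did, at 4734 against 41.5 and 68.4 TP100K.

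On the CD45-positive plates the labelled myeloid cells had the highest class II RNA. The sum of the 7 genes averaged 5026 ± 2268 TP100K in myeloid cells (SD, n = 73 cells), 2088 ± 1137 in B cells (n = 33), 1604 ± 2248 in microglia (n = 79) and 13.5 ± 24 in NK cells (n = 53). B cells and microglia, which are next to each other in that order, did not differ beyond their spread. Microglia were divided rather than intermediate: their median sum was 136 TP100K, and their highest cell, at 8754 TP100K, came near the highest myeloid cell at 10788 TP100K. Every member was above 0 in at least 90.4% of myeloid cells, Ciita included, which averaged 62.2 ± 46.6 TP100K there. NK cells, which are not class II presenting cells in mice, still had both I-A chains above 0 in 12 of 53 cells (22.6%). Over all 53 NK cells the median sum was 2.75 TP100K and the highest 106 TP100K. Values near that median are read as background here, and detection of both chains alone does not exclude background.

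Outside the CD45-positive plates, class II RNA was not limited to professional cells. Both chains of I-A were above 0 in 99 of 117 malignant cells on CD31-positive plates (84.6%, exact 95% interval 76.8 to 90.6) and in 29 of 195 TECs (14.9%, 10.2 to 20.7). The TEC share was below the 22.6% of NK cells on CD45-positive plates, so by itself it does not separate TECs from background. On CD45-negative plates both chains were above 0 in 102 of 148 malignant cells and in none of 31 oligodendrocytes, which allows a share of up to 9.68%. Of these oligodendrocytes 29 came from the anti-PD1 plate, where none of the 8 malignant cells had both chains either. Pooled over treatments, the sums followed the same order on each sort. They averaged 284 ± 322 TP100K in malignant cells against 73.5 ± 164 in TECs on CD31-positive plates. On CD45-negative plates they averaged 185 ± 206 in malignant cells against 5.72 ± 11.1 in oligodendrocytes. The SDs over cells exceeded both pooled malignant means, and the sum was 0 in 100 of 195 TECs. The pooled cells mix treatments unequally, and in controls the CD31-positive means were 128 (malignant) and 112 TP100K (TECs). With losartan+anti-PD1 they were 457 and 213, with losartan 172 and 31.2, and with anti-PD1 176 (8 malignant cells) and 54.9 TP100K. On the CD45-negative anti-PD1 plate malignant cells averaged 8.86 and oligodendrocytes 4.8 TP100K. Only 6 TECs came from CD45-negative plates, 2 of them with both chains of I-A.

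**Figure D1:**
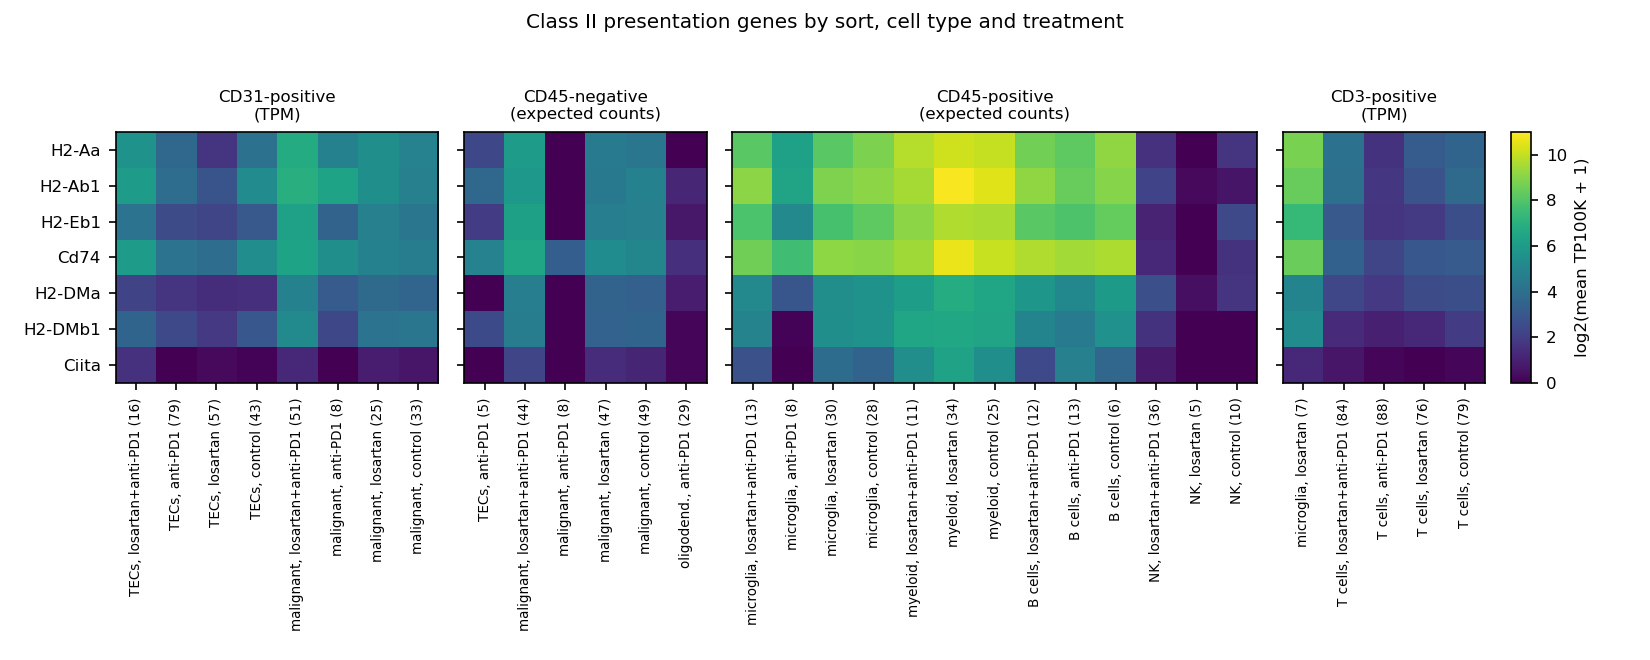
Mean level of the 7 class II genes (rows) in each cell type and treatment with at least 5 cells (columns), as log2 of mean TP100K + 1, with panels by sort because the sorts differ in unit. Myeloid cells and B cells are high in every treatment drawn for them, which leaves out anti-PD1 for myeloid cells and losartan for B cells. Malignant cells are highest with losartan+anti-PD1 on both the CD31-positive and CD45-negative plates, and NK and T cells stay low.

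Malignant cells from losartan+anti-PD1-treated tumors held more class II RNA than those of control tumors, on each of the plates that caught them. On CD31-positive plates H2-Aa ranged from 0 through a median of 74.6 to 552 TP100K with losartan+anti-PD1 (n = 51) and from 0 through 9.44 to 185 TP100K in controls (n = 33). On CD45-negative plates it ranged from 0 through 57.8 to 275 TP100K with losartan+anti-PD1 (n = 44) and from 0 through 11.8 to 137 TP100K in controls (n = 49). The groups overlapped, and the medians with losartan+anti-PD1 lay inside the control range.

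The other chains differed in the same direction as H2-Aa. On CD31-positive plates H2-Ab1 averaged 122 ± 118 TP100K with losartan+anti-PD1 and 26.5 ± 30 TP100K in controls, a log2 ratio of 2.16, the highest of the members. The log2 ratio is that of the means after adding 1 TP100K. H2-Eb1 (78.1 ± 73 against 18.9 ± 29.7 TP100K) and Cd74 (83.3 ± 49.5 against 23.4 ± 28.5 TP100K) had log2 ratios of 1.99 and 1.79. The exchange factor had lower log2 ratios: H2-DMa averaged 27.9 ± 21.8 against 11.2 ± 11.8 TP100K (1.25), and H2-DMb1 36.3 ± 22.1 against 19.2 ± 18.5 TP100K (0.88). Ciita was low throughout, at 1.42 ± 1.99 against 0.565 ± 2.56 TP100K (0.63), but it was above 0 in 62.7% against 24.2% of cells, and a single control cell held 79.1% of the control signal.

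The CD45-negative plates, sorted separately and in another unit, gave values in the same direction. Cd74 averaged 89.1 ± 62.9 TP100K with losartan+anti-PD1 and 31.8 ± 28.1 TP100K in controls, with a log2 ratio of 1.46, and H2-Aa 66.9 ± 57.9 and 19.1 ± 26.3 TP100K (1.76). Log2 ratios for H2-Ab1, H2-Eb1, H2-DMa, H2-DMb1 and Ciita were 1.02, 1.46, 1.35, 1.09 and 1.14. Ciita was above 0 in 40.9% of cells with losartan+anti-PD1 and 36.7% of controls, so here its difference was one of level (3.86 against 1.2 TP100K) and hardly of share. Whether the same animals gave both sorts is not stated.

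These log2 ratios were set beside those of all genes. A log2 ratio of at least 1 was reached by 5 of 7 members on CD31-positive plates, where 0.571% of 9979 genes did (genes above 0 in 25% or more of either group), and by 7 of 7 members on CD45-negative plates, where 1.3% of 9852 genes did. The median log2 ratio of the members was 1.79 and 1.35 on these plates, and that of all genes −0.03 and −0.02. On CD31-positive plates Ciita passed the filter only through the losartan+anti-PD1 cells (62.7% above 0, against 24.2% of controls). It is not among the 5 members counted there. Genes detected per cell were close, with medians of 7181 and 7188 on CD31-positive plates and 7129 and 7095 on CD45-negative plates. Under losartan alone against control the members' median was 0.21 on CD31-positive plates (25 against 33 cells, range −0.14 to 0.69) and 0.14 on CD45-negative plates (47 against 49 cells, range −0.38 to 0.31). The medians of all genes there were −0.07 and 0.10. On CD31-positive plates H2-Ab1 (0.69), H2-Aa (0.58) and H2-Eb1 (0.49) lay above 98.1%, 97.1% and 95.8% of genes under losartan, and H2-DMb1 (−0.14) above 39.6%. On CD45-negative plates the members ran from H2-Ab1 (−0.38), above 7.61% of genes, to Cd74 (0.31), above 72.1%.

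**Figure D2:**
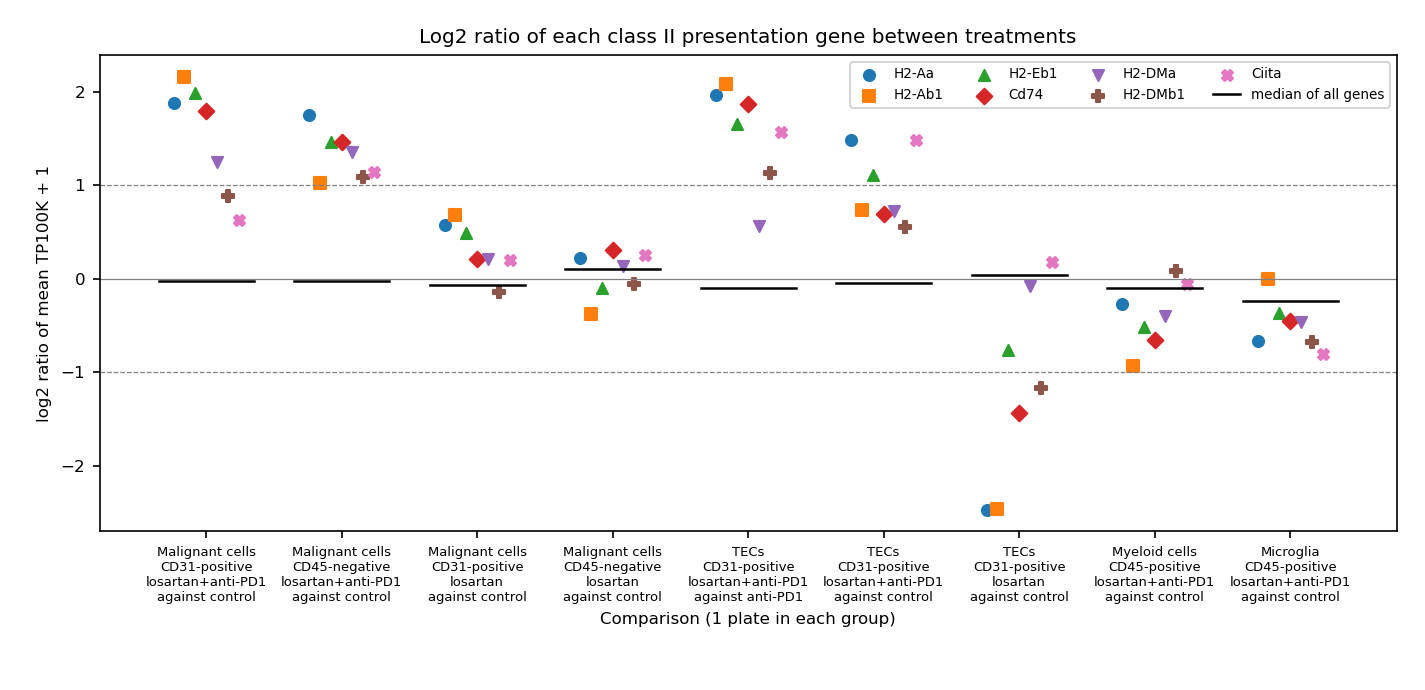
Log2 ratio of mean TP100K + 1 for each of the 7 class II genes (points) in each comparison, with a line at the median of all genes tested in that comparison. All 7 points are above 0 for malignant cells with losartan+anti-PD1 against control on both kinds of plate, and those of losartan alone run from −0.14 to 0.69 (CD31-positive) and from −0.38 to 0.31 (CD45-negative) in malignant cells.

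The difference was spread over the cells and not carried by a few. All 7 genes were above 0 together in 32 of 51 malignant cells with losartan+anti-PD1 on CD31-positive plates, against 6 of 33 controls, and in 18 of 44 against 15 of 49 on CD45-negative plates. The median sum of the 7 genes was 403 TP100K with losartan+anti-PD1, 119 with losartan and 70.5 in controls on CD31-positive plates. It was 311, 63.4 and 98.4 TP100K in the same order on CD45-negative plates. In the losartan+anti-PD1 group of the CD45-negative plates the top cell held 9.33% of the H2-Aa signal.

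Both chains of I-A were detected in nearly every malignant cell with losartan+anti-PD1: 48 of 51 on CD31-positive plates (94.1%, 83.8 to 98.8) and 42 of 44 on CD45-negative plates (95.5%, 84.5 to 99.4). Controls had them in 25 of 33 (75.8%, 57.7 to 88.9) and 38 of 49 (77.6%, 63.4 to 88.2). Losartan differed between the plates, with 23 of 25 (92%, 74 to 99) on the CD31-positive plate and 22 of 47 (46.8%, 32.1 to 61.9) on the CD45-negative plate, the one with the disagreeing column. With anti-PD1 alone only 8 malignant cells were caught on each sort, of which 3 on the CD31-positive plate and none on the CD45-negative plate had both chains. A count of 0 in 8 cells allows a share of up to 37.5%. These cells had fewer genes detected, with medians of 5304.5 and 3799.5, and 92.5% of the Cd74 signal on the CD31-positive plate lay in 1 of them, so malignant cells of the anti-PD1 group were not compared further.

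**Figure D3:**
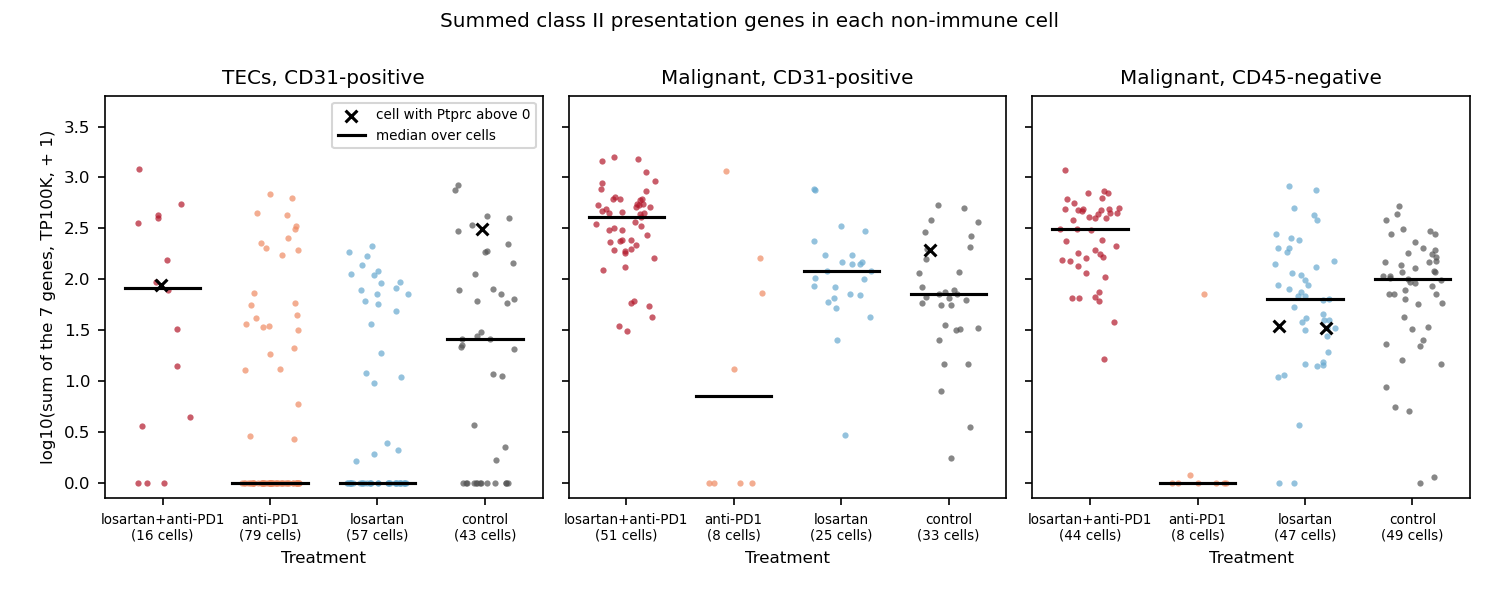
Sum of the 7 class II genes in each malignant cell and TEC (points, log10 of TP100K + 1) by treatment, with bars at the medians and crosses for cells with Ptprc above 0. Malignant cells with losartan+anti-PD1 have medians of 403 (CD31-positive) and 311 (CD45-negative) TP100K, and most TECs given anti-PD1 or losartan lie at 0.

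Within the malignant population the members varied together from cell to cell. Spearman correlations of H2-Aa with H2-Ab1 and with Cd74 over cells were 0.91 and 0.86 on CD31-positive plates (n = 117 cells) and 0.84 and 0.78 on CD45-negative plates (n = 148 cells). The cells share plates, depth and treatments, and the correlations are given as a description. Cells with Ciita followed the same line: both I-A chains were above 0 in 100% of the 50 malignant cells with Ciita and in 73.1% of the 67 without it on CD31-positive plates, with mean sums of the other 6 genes of 406 and 191 TP100K. On CD45-negative plates the shares were 91.5% of 47 cells with Ciita and 58.4% of 101 without. A cell in which Ciita was not detected is not shown to lack it.

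Because these genes vary together, their start sites were read for the letters that class II promoters are known for, an X box bound by the RFX complex and a Y box bound by NF-Y. The windows run from 250 bases before to 50 bases after each start in the RefSeq annotation of GRCm38.p6, and 4 of the 7 members had one (H2-Aa, H2-Eb1, H2-DMb1 and H2-DMa). GNAACT stands for the X box and TGATTGG for the Y box. They were searched on both strands, the letters having been picked after looking at these promoters, and a pair is GNAACT followed by TGATTGG on the same strand with 10 to 40 bases between. Among all 32851 promoters of that length, 42.8% hold GNAACT, 7.82% hold TGATTGG and 0.274% hold the pair. The 3 members with a pair are printed 5′ to 3′ with H2-Eb2, the paralog of H2-Eb1, and capitals mark the letters searched, GNAACT first.
H2-Aa (chr17:34287847-34287924, minus strand): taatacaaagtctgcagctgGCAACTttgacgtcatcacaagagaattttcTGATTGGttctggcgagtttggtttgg
H2-Eb1 (chr17:34305756-34305832, plus strand): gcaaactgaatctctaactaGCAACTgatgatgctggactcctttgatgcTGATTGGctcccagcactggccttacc
H2-DMb1 (chr17:34153077-34153154, plus strand): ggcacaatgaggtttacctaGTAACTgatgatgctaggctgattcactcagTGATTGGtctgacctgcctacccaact
H2-Eb2 (chr17:34325523-34325599, plus strand): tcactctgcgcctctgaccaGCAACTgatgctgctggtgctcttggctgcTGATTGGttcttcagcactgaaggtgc

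The spacing between the marked letters was 25 bases in H2-Aa and H2-DMb1 and 24 bases in H2-Eb1 and H2-Eb2, and 43, 56, 54 and 95 bases lay between the Y letters and the start, in that order of genes. From the X letters through the Y letters, H2-Eb1 and H2-Eb2 matched at 30 of 37 positions (81.1%), and H2-Aa and H2-DMb1 at 16 of 38 (42.1%). H2-DMa, the chain that pairs with H2-DMb1, has 2 windows, neither of which holds TGATTGG, and only 1 holds GNAACT. H2-Oa, H2-Ob and H2-DMb2 hold TGATTGG without the pair. H2-Ab1, Ciita and Cd74 were not matched. A match is a description of letters, and a window without one says nothing about binding elsewhere.

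Whether the class II RNA of malignant cells and TECs came with other leukocyte RNA was counted cell by cell. Ptprc, which encodes CD45 and averaged 106 to 246 TP100K in the microglia, myeloid, B and NK cells of the CD45-positive plates, was above 0 in 1 of the 99 malignant cells with both I-A chains on CD31-positive plates (0.49 TP100K). It was above 0 in 1 of the 102 such cells on CD45-negative plates, where no malignant cell exceeded 0.708 TP100K. Among TECs it was above 0 in 1 of 29 cells with both chains, at 5.08 TP100K, and in 1 of 166 other TECs. Ptprc was thus at 0 in nearly all of the class II-positive malignant cells and TECs. The CD45-negative sort selects against the CD45 protein, and the cell type labels were made from the same RNA. A low count was therefore partly fixed by how the cells were chosen.

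A list of 9 leukocyte genes (Ptprc, Coro1a, Laptm5, Cd52, Cd53, Lcp1, Rac2, Tyrobp and Fcer1g) had a gene above 0 in more cells than Ptprc alone, in malignant cells and above all in TECs. Its summed level had a median of 868 TP100K in myeloid cells and 0 in malignant cells of either sort. At least 1 of the genes was above 0 in 25 of 99 malignant cells with both I-A chains and 5 of 18 without them on CD31-positive plates, and in 23 of 102 and 18 of 46 on CD45-negative plates. At least 5 of the genes were above 0 in 1 malignant cell of the CD31-positive plates and in no TEC. In TECs at least 1 gene was above 0 in 23 of 29 cells with both chains and 98 of 166 without, mostly Lcp1, an actin-bundling protein gene above 0 in 44.6% of TECs with a mean of 6.27 TP100K. The summed list averaged 13.7 TP100K in TECs with both chains and 9.91 TP100K in the rest.

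With every gene of the leukocyte list at 0, both I-A chains were still above 0 in 40 of 43 malignant cells with losartan+anti-PD1 and 16 of 21 controls on CD31-positive plates. On CD45-negative plates they were above 0 in 32 of 32 and 31 of 39. The members' median log2 ratio for losartan+anti-PD1 against control was 1.67 and 1.37 in these cells, close to the 1.79 and 1.35 over all malignant cells. TECs of CD31-positive plates with the list at 0 had both chains in 6 of 74 cells (8.11%), against 29 of 195 over all of them (14.9%). By treatment it was 1 of 5 (losartan+anti-PD1), 3 of 37 (anti-PD1), 0 of 17 (losartan) and 2 of 15 (controls). Among macrophage and microglia genes, malignant cells had mainly Tmem119, above 0 in 36.8% (CD31-positive) and 37.8% (CD45-negative) of them, with means of 15.2 and 18.7 TP100K. The summed macrophage list averaged 19.2 TP100K in malignant cells with both chains and 4.07 TP100K in those without on CD31-positive plates, and its part in the result was not tested.

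**Figure D4:**
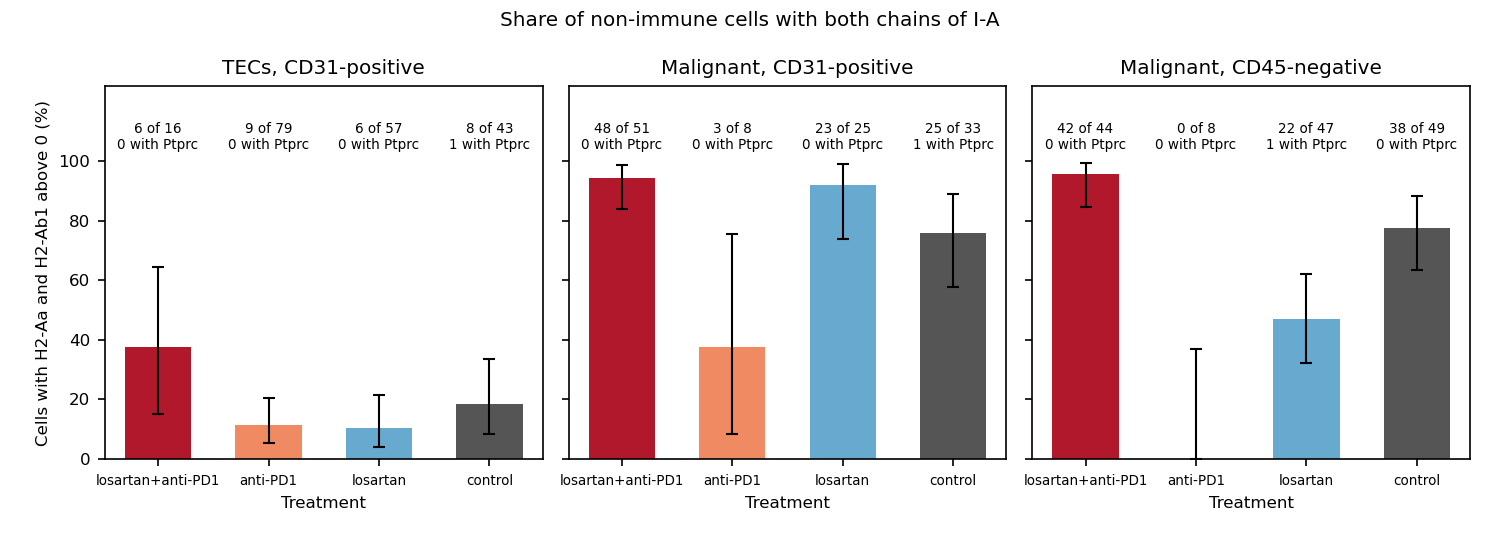
Share of cells with both H2-Aa and H2-Ab1 above 0 (percent, with exact 95% intervals over cells) by treatment in TECs and malignant cells, with the counts of such cells and of those that also had Ptprc printed above each bar. Malignant cells with losartan+anti-PD1 stand at 94.1% and 95.5%, TECs with losartan+anti-PD1 at 37.5%, and no more than 1 cell of any group with both chains had Ptprc.

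The proportions among the members also differed between malignant cells and the class II-rich leukocytes measured in the same unit. By expected counts, the ratio of mean H2-DMa to mean Cd74 was 0.275 in malignant cells of CD45-negative plates, against 0.0818 in microglia, 0.0727 in myeloid cells and 0.065 in B cells. By TPM it was 0.361 in malignant cells and 0.0834 in TECs of CD31-positive plates, against 0.0763 in the 10 microglia caught on CD3-positive plates. The ratio of H2-DMb1 to Cd74 ran in the same direction by TPM, at 0.488 in malignant cells, 0.194 in TECs and 0.12 in those microglia. For H2-DMa, TECs lay near the ratio of those leukocytes and malignant cells several times above it. NK cells (3.34, by expected counts) and T cells (0.587, by TPM) lay above malignant cells in the same ratio, with Cd74 means of only 1.3 and 7.07 TP100K. The leukocytes came from other plates than the malignant cells and TECs.

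Pooled over treatments, TECs had less class II RNA than malignant cells, and under no treatment did most of them have both I-A chains. In controls on CD31-positive plates, TECs had higher means than malignant cells for Cd74 (40.5 against 23.4 TP100K) and H2-Ab1 (38.5 against 26.5). Their means of the other members were lower. TECs had both chains of I-A above 0 in 6 of 16 cells given losartan+anti-PD1 (37.5%, 15.2 to 64.6), 9 of 79 with anti-PD1 (11.4%, 5.34 to 20.5), 6 of 57 with losartan (10.5%, 3.96 to 21.5) and 8 of 43 controls (18.6%, 8.39 to 33.4). The interval of the first group overlaps those of the other groups. No member at all was seen in 3 of 16, 52 of 79, 32 of 57 and 13 of 43 TECs in the same order, and the median sum was 81.5, 0, 0 and 24.8 TP100K. Cd74 alone was seen more often, in 68.8%, 26.6%, 35.1% and 58.1% of them.

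The 16 TECs with losartan+anti-PD1 show how few cells the means rest on. Cd74 had a median of 14.5 and a highest value of 335 TP100K in them, with a mean of 66 ± 100 TP100K, against 17.3 ± 52 TP100K with anti-PD1, 14.4 ± 27.6 with losartan and 40.5 ± 58.7 in controls. H2-Ab1 averaged 64.8 ± 143 TP100K, but 54% of that lay in 1 cell, cell533, with 560 TP100K of H2-Ab1, 335 of Cd74, 135 of H2-Aa and 122 of H2-Eb1. In this cell Ptprc was at 0. Another, cell553, held the highest H2-Aa (355 TP100K) with H2-Ab1 at 0, so that the RNA of the second chain of I-A was not detected in it. Ciita was above 0 in 4 of the 16 cells, and 1 of them, cell557, held 78.5% of its signal with H2-Aa and H2-Ab1 at 0. Against this the Ciita RNA of TECs was at 0 in all 79 cells with anti-PD1, which allows a share of up to 3.8%, and above 0 in 2 of 57 with losartan and 1 of 43 controls.

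Against control, the members' log2 ratios with losartan+anti-PD1 in TECs ran from 0.56 (H2-DMb1) to 1.49 (H2-Aa), with a median of 0.73, and 3 of 7 were at least 1 (H2-Aa, H2-Eb1 and Ciita), where 12.4% of 7003 genes were. H2-Aa, H2-DMa and Ciita passed the filter only through the losartan+anti-PD1 cells, so nothing is read from the count, and of the 4 members seen in 25% of cells in both groups only H2-Eb1 reached 1. Ciita was at 0.54 without its highest cell in each group. With every leukocyte gene at 0 the median was 0.0233, from 5 and 15 cells. Against anti-PD1 alone, 6 of 7 members were at least 1, where 11.2% of 6550 genes were, but only Cd74 (1.87) was seen in 25% of cells in both groups, and nothing is read from this count either. The highest were H2-Ab1 (2.09) and H2-Aa (1.97), and H2-DMa (0.56) was the exception. The median of 1.65 was 0.85 with the leukocyte list at 0 (5 and 37 cells) and 1.05 among cells with 2000 to 6000 genes detected. Both comparisons use the same 16 cells.

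TECs of tumors given anti-PD1 alone or losartan alone had lower mean class II RNA than those of controls. With anti-PD1, H2-Ab1 averaged 14.5 ± 44.7 TP100K, against 38.5 ± 95.3 TP100K in controls (log2 ratio −1.35), and 2 of 7 members were at or under −1, where 7.4% of 6288 genes were. With losartan 4 of 7 were, where 6.35% of 6315 genes were, led by H2-Aa at 2.2 ± 7.53 against 16.7 ± 49.3 TP100K (−2.47). In each comparison only 4 members passed the filter of 25% of cells above 0 in either group, among them both of those with anti-PD1 and 3 of the 4 with losartan, H2-Aa being the exception. Only Cd74 (−1.18) with anti-PD1, and H2-Ab1 (−2.47) and Cd74 (−1.43) with losartan, were seen in that share of both groups, the others only in controls, so these counts too are a description. The members' medians were −0.55 with anti-PD1 and −1.17 with losartan, but the first was 0.44 among cells with 2000 to 6000 genes.

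The TEC clusters were divided unevenly over the treatments. Of 3 TEC clusters in the authors' labels, cluster 3 held 78 of 79 TECs with anti-PD1, 29 of 57 with losartan, 5 of 16 with losartan+anti-PD1 and 3 of 43 controls. Cd74 averaged 14.4 TP100K over cluster 3, 38 over cluster 7 and 50.6 over cluster 12. Within cluster 3 Cd74 was at 0 in all 29 cells with losartan and averaged 13.9 ± 42.2 TP100K in the 78 with anti-PD1 and 103 ± 145 TP100K in the 5 with losartan+anti-PD1. Within clusters 7 and 12 the median of the members for losartan against control was −0.46, and for losartan+anti-PD1 against control 0.22. The cluster mix and the treatment thus moved together in TECs, and the part of each was not tested.

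Depth and foreign RNA in TECs were counted beside these values. TECs with both I-A chains had a median of 4051 genes detected, against 3000 in the rest, and malignant cells on CD31-positive plates 7152 against 6240. The malignant list summed to a mean of 5 TP100K in TECs with both chains and 3.92 TP100K in the others, against 83.9 TP100K in malignant cells with both chains. Their endothelial list averaged 1572 TP100K, against 7.68 TP100K in those malignant cells. In TECs with every malignant gene at 0 the median log2 ratio of the members was 0.51 for losartan+anti-PD1 against control and 1.69 against anti-PD1, an alternative chosen after the data were seen.

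In myeloid cells H2-Ab1 and Cd74 were above control with losartan and below it with losartan+anti-PD1, and between those treatments their means differed by more than the SD over cells of either. Myeloid cells with losartan had an H2-Ab1 mean of 1915 ± 839 TP100K (n = 34), against 1395 ± 621 TP100K in controls (n = 25), and Cd74 of 1655 ± 646 against 1086 ± 481 TP100K. The highest log2 ratio there was that of Ciita (0.86, 80.1 ± 47.2 against 43.6 ± 34.1 TP100K), and the members' median was 0.28 beside 0.17 for all genes. The 11 myeloid cells with losartan+anti-PD1 were lower than controls in H2-Ab1 (729 ± 732 against 1395 ± 621 TP100K) and Cd74 (688 ± 577 against 1086 ± 481 TP100K). Ciita was above 0 in 5 of these 11 cells and in 24 of 25 controls. Their median number of genes detected, 3189 against 3859, was lower too.

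Cells labelled microglia split by cluster more than by treatment. H2-Aa averaged 500 ± 485 TP100K in cluster 6 (51 cells, 82.4% above 0) and 12.2 ± 37 TP100K in cluster 11 (28 cells, 25% above 0), and Cd74 747 ± 783 and 9.89 ± 18.6 TP100K. Since the clusters were made from the same cells and genes, this is a description. Within cluster 6, H2-Aa was above 0 in 16 of 24 cells with losartan, at a mean of 358 ± 506 TP100K, against all 16 control cells, at a mean of 790 ± 364 TP100K. Over both clusters the members' median log2 ratio was −0.19 with losartan and −0.46 with losartan+anti-PD1 against control, beside medians of all genes of 0.24 and −0.24. Ciita marked the class II-high cells: both I-A chains were above 0 in all 30 microglia with Ciita and in 26.5% of the 49 without.

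B cells had class II RNA in every treatment. Cd74 averaged 816 ± 387 TP100K with losartan+anti-PD1 (n = 12), 701 ± 431 with anti-PD1 (n = 13) and 805 ± 230 in controls (n = 6), and H2-Aa 397 ± 248, 313 ± 314 and 570 ± 233 TP100K in the same order. These groups overlapped within 1 SD. Only 2 B cells came from the losartan plate.

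T cells of the CD3-positive plates, which in mice do not make class II molecules, had both I-A chains above 0 in 18 of 327 cells (5.5%). A single T cell with losartan+anti-PD1 had a sum of 3552 TP100K, within the range of the 10 microglia on these plates (0.078 to 6316 TP100K), and the comparison of losartan+anti-PD1 with control turned on it. The median log2 ratio of the members was 0.25 with it and −1.43 without the highest cell of each group. Against controls the medians were −0.98 with anti-PD1 and −0.38 with losartan, from levels near 0 in most cells.

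H2-Oa and H2-Ob, which encode the inhibitor of H2-DM, averaged 38.9 and 107 TP100K in B cells and 45.9 and 23.3 TP100K in myeloid cells, and H2-Oa was at 0 in every TEC. H2-DMb2 averaged 44.9 TP100K in B cells and 35.1 in myeloid cells, and H2-Eb2 9.84 in B cells and 1.6 in myeloid cells. In malignant cells of CD31-positive and CD45-negative plates H2-DMb2 averaged 1.19 and 0.385 TP100K, and H2-Eb2, seen in 22.2% and 20.9% of them but in 8.22% of myeloid cells, 0.433 and 0.76 TP100K. H2-DMb1 and H2-DMb2 are near copies of each other, and H2-Eb2 is a paralog of H2-Eb1. Reads may be divided within each pair, so their separate values are uncertain. In malignant cells with losartan+anti-PD1 against control, H2-DMb2 had log2 ratios of 0.87 and 0.93 and H2-Eb2 of 0.62 and 0.69 on CD31-positive and CD45-negative plates. Both genes passed the filter of 25% of cells only through the losartan+anti-PD1 cells. Their means over all malignant cells lay near or under the 1 TP100K added, so these ratios are a description. The pseudogene of the I-E alpha chain, H2-Ea-ps, did not exceed a mean of 0.0894 TP100K in any cell type.

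Genes that work beside class II molecules were uneven in malignant cells and TECs. Leukocyte values here are by expected counts and those of TECs and of malignant cells on CD31-positive plates by TPM, so they are given side by side without a ratio. Ctss, the protease that cuts the invariant chain in professional cells, averaged 432 TP100K in microglia, 254 in myeloid cells and 59.6 in B cells, but 0.213 in TECs and 1.1 and 0.167 in malignant cells of CD31-positive and CD45-negative plates. Ctsl, which cuts it in the thymic epithelium, averaged 34.9 TP100K in TECs and 22.6 and 20.6 in malignant cells. Ifi30, a lysosomal thiol reductase gene, averaged 153 TP100K in myeloid cells, 0.159 in TECs and 2.92 and 1.37 in malignant cells. The costimulatory ligand gene Cd80 was at 0 in all TECs and malignant cells, and Cd86, with a mean of 32.6 TP100K in myeloid cells, was at 0 in TECs and averaged at most 0.00886 in malignant cells. Cd274, which encodes the ligand of PD1, averaged 2.67 TP100K in TECs and 2.74 and 8.33 in malignant cells, with log2 ratios for losartan+anti-PD1 against control of 1.64 on CD31-positive and 0.18 on CD45-negative plates.

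Upstream of the members stand the RFX and NF-Y complexes, which bind class II promoters. Of 7 genes of class II transcription (Rfx5, Rfxap, Rfxank, Creb1, Nfya, Nfyb and Nfyc), 6 passed the filter on CD31-positive and 7 on CD45-negative plates, and none of them was past a log2 ratio of 1 in either direction in malignant cells with losartan+anti-PD1 against control. Since only 1.41% and 2.38% of all genes were past it in either direction on these plates, a count of 0 among so few genes says little. Their medians were −0.06 (CD31-positive) and 0.04 (CD45-negative). Some genes of the interferon gamma response were past it. Of 18 listed, 17 passed the filter in malignant cells on each sort, and 6 reached a log2 ratio of 1 on CD31-positive plates (median 0.64), where 0.571% of all genes did. On CD45-negative plates 1 did (median 0.48), where 1.3% of all genes did. The guanylate-binding protein gene Gbp4 led on each, at 2.18 and 1.41, followed on CD31-positive plates by the transcription factor gene Irf1 (1.5) and the GTPase gene Igtp (1.35). The light chain of class I molecules, B2m, had a log2 ratio of 0.29 there.

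In TECs 8 of the 17 measured interferon genes reached a log2 ratio of 1 with losartan+anti-PD1 against control (median 0.77), beside 12.4% of all genes, and 11 of 17 did against anti-PD1 (median 1.49), beside 11.2%. Cxcl9 and Cxcl10 passed the filter only through the 16 losartan+anti-PD1 cells, so nothing is read from either count. Of the 15 measured with losartan against control 5 were at or under −1 (median −0.82), beside 6.35% of all genes, and of the 15 with anti-PD1 against control 3 were (median −0.66), beside 7.4%. These comparisons share control and losartan+anti-PD1 cells. In single cells the interferon list summed to a mean of 2415 TP100K in TECs with both I-A chains and 1589 TP100K in the others, and to 1410 and 730 TP100K in malignant cells of the CD31-positive plates.

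In myeloid cells the medians had opposite signs: with losartan+anti-PD1 against control the interferon list had a median log2 ratio of 0.80 and the 7 members one of −0.40. In microglia the corresponding medians were 0.84 and −0.46, the second of which was −1.17 with cells scaled by the 75th percentile. Both comparisons rest on few cells with losartan+anti-PD1, 11 and 13. The macrophage and microglia list was lower too, with median log2 ratios of −1.92 in microglia and −1.56 in myeloid cells. Only 8 and 4 of its 9 genes passed the filter there. Whether the mix of cells under these labels differed between the treatments was not tested.

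The genes most like the members in pattern were taken by correlation with the mean of the 7, on a log scale. Over the 13 groups of cell type and treatment on CD45-positive plates, among 9638 genes, the closest by Pearson's r outside the members were Ifi30 (0.964), Gm6377 (0.961), Cybb (0.932), which encodes a subunit of the phagocyte oxidase, Fgd2 (0.928) and the cathepsin gene Ctsh (0.915). Over the 195 TECs, among 5133 genes, the closest by Spearman's rho were Plxnb2 (0.486), Pdlim1 (0.455), Fkbp10 (0.447), the class I gene H2-K1 (0.441) and Cmtm3 (0.432). The lists share no gene, but most genes of the first list were hardly detected in TECs, so nothing is read from this. Over the 195 TECs, Ifi30 and Gm6377 were each above 0 in 1.03% of cells, Cybb and Fgd2 in 0%, and Ctsh in 60%. The groups and cells share plates and depth, and the correlations are a description.

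In GENCODE vM21 (GRCm38) 5 of the members lie close together in the MHC on chromosome 17. They are H2-DMa (34119541 to 34139101), H2-DMb1 (34153072 to 34160230), H2-Ab1 (34257689 to 34269419), H2-Aa (34282744 to 34287823, minus strand) and H2-Eb1 (34305867 to 34316674). Ciita lies on chromosome 16 (10480059 to 10528418) and Cd74 on chromosome 18 (60803848 to 60812652), apart from the rest. Values are per gene, so the positions bear on no single exon or UTR.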

How the data were processed

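Cells of GL261 tumors were sorted and sequenced by Smart-seq2. The authors mapped reads to mm10 transcripts with Bowtie, and gene values came from RSEM (version 1.2.8 in the submitters' processing notes, which also name TopHat). As deposited, the CD31-positive and CD3-positive plates hold TPM, which the authors corrected for transcript length and brought to one sum in every cell (1% of values above 0 are exactly whole). The values deposited for the CD45-negative and CD45-positive plates were read as RSEM's expected counts, not divided by length, from their form (78.7% exactly whole, totals of 3598 to 1896085 per cell), although the study's methods describe TPM for all cells. TPM keeps no read depth.

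Each cell was scaled to 100000 (TP100K). Groups are the authors' cell type labels and treatments within a sort, with 1 plate a group, so no test was run. Ratios are log2 of mean TP100K after adding 1, and shares have exact (Clopper-Pearson) 95% intervals. A count of 0 in n cells allows 3 of n. Counts of genes past a log2 ratio of 1 or −1 use genes above 0 in 25% or more of either group's cells. The 7 members were named in every group, the other genes by fixed lists or, for genes of like pattern, by the 5 highest correlations. The members and lists were chosen with earlier results of these data known. Some lists hold genes that the studied cells also express, such as Lcp1 and Tmem119.

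Alternatives covered the pseudocount (0.1 and 10 TP100K), scaling by the 75th percentile, the detection limit (1 and 10 TP100K), thinning to 50000 expected counts, 2000 to 6000 genes detected, the highest cells, Ptprc, the leukocyte list and the TEC clusters. The steps were tested on simulated data. Promoter sequences came from RefSeq (GRCm38.p6). The software was SciPy 1.17.1, NumPy 2.4.6, pandas 2.3.3 and matplotlib 3.10.9 under Python 3.11.15.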

Additional observations from a re-analysis of the deposited data

Results flagged for a closer look

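Under losartan+anti-PD1 against control, the median log2 ratio of the 7 class II genes had opposite signs in different cell types. It was 1.79 in malignant cells of the CD31-positive plates, 1.35 in malignant cells of the CD45-negative plates and 0.73 in TECs, but −0.46 in microglia and −0.40 in myeloid cells of the CD45-positive plates. The difference between cell types was not tested, since each treatment is 1 plate per sort, and the medians of all genes were −0.24 in microglia and −0.10 in myeloid cells. Those of the macrophage and microglia list were −1.92 and −1.56 there, and the part of the cell mix was not tested.

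Under losartan against control the median was −1.17 in TECs, and 0.21 and 0.14 in malignant cells of the CD31-positive and CD45-negative plates and 0.28 in myeloid cells. This difference was not tested either. Of the 57 TECs with losartan, 29 lay in cluster 3, which held 3 of 43 controls.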

How the results depend on the processing

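Over 16 medians of log2 ratios and 107 alternatives, 102 kept the sign and 90 moved by less than 1.5 times on the linear scale. In 12 shares, 52 of 64 alternatives stayed within the interval of the main value. No paired analysis was possible because no comparison has a test or more than 1 plate a group. For malignant cells with losartan+anti-PD1 against control, the CD31-positive median of 1.79 was 2.43 among cells with 2000 to 6000 genes (7 against 5 cells), and every other alternative to it, and every one on CD45-negative plates, stayed within 1.5 times.

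TEC medians were less stable. Losartan+anti-PD1 against control (0.73) gave 1.69 among cells with 2000 to 6000 genes and 0.0233 with the leukocyte list at 0. Losartan+anti-PD1 against anti-PD1 (1.65) gave 0.88 with a pseudocount of 10 TP100K, 1.05 among cells with 2000 to 6000 genes and 0.85 with the leukocyte list at 0. Anti-PD1 against control (−0.55) turned to 0.44 among cells with 2000 to 6000 genes. Losartan against control (−1.17) gave −0.44 with a pseudocount of 10 TP100K, −0.53 among cells with 2000 to 6000 genes, −2.03 with the leukocyte list at 0 and −0.46 within clusters 7 and 12. With that list at 0, none of 17 TECs with losartan had both I-A chains (0%). In T cells, losartan+anti-PD1 against control (0.25) gave −1.43 without the highest cell of each group. Against control, T cells with losartan (−0.38) gave −1.10 and microglia with losartan+anti-PD1 (−0.46) −1.17 with cells scaled by the 75th percentile, and T cells with anti-PD1 (−0.98) −0.34 with a pseudocount of 10 TP100K. The cause of these shifts was not tested.

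The share of malignant cells with both I-A chains depends on the detection limit: at 10 TP100K it was 75% with losartan+anti-PD1 and 51% in controls on CD45-negative plates. TPM keeps no read depth, so on CD31-positive and CD3-positive plates the detection of low genes such as Ciita could not be set against depth.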

Other observations

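The 10 microglia sorted onto CD3-positive plates also carried class II RNA. H2-Aa averaged 445 ± 374 TP100K in the 7 cells of the losartan plate, and both cells of the control plate exceeded the highest value of the losartan plate, 1035 TP100K, with a mean of 1225 TP100K. A single myeloid cell on these plates, from the losartan+anti-PD1 group, had 577 TP100K of H2-Aa and 458 TP100K of Cd74. On CD31-positive plates 1 of the 2 oligodendrocytes had a class II sum of 530 TP100K and the other 0.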
